A study of Homo sapiens with 8 samples.

Results

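The 4 genes of calcium/calmodulin-dependent protein kinase II (CaMKII), CAMK2A, CAMK2B, CAMK2D and CAMK2G, were followed through an eCLIP data set for the RNA-binding protein RBFOX2 in HEK293T cells, a human embryonic kidney line. In eCLIP, proteins are crosslinked to RNA by ultraviolet light, 1 protein is immunoprecipitated (IP), and the RNA fragments it carries are sequenced beside an input taken from the same lysate. The 8 samples are 4 IP libraries with an antibody to RBFOX2 and 4 inputs, numbered 1 to 4. Every sample came from 10000000 cells of this line, crosslinked at 254 nm and 400 mJ per square centimetre, and the input was 2% of the lysate. No genotype, treatment or time differs between samples, and the labels do not say whether the 4 replicates were separate cultures. The p-values of the tests over replicates (limma and permutation) therefore measure the spread between these libraries, which may be technical. The −log10 p of a single called peak was read as setting 1 IP against its own input, and it measures no such spread.

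The deposited lists give, for each IP library, the called peaks with a −log10 p and a log2 fold of IP over its own input. Peaks were assigned to a CaMKII gene when their midpoint lay in its RefSeq span (GRCh38.p14), on the strand of the gene, which is the minus strand for all 4. This gave 96, 112, 112 and 118 peaks in replicates 1 to 4, or 438 of the 1118316 called peaks in the 4 lists. CAMK2D on chromosome 4 (113451032 to 113761738) held 177 of them, CAMK2B on chromosome 7 (44217154 to 44326013) held 164, and CAMK2G on chromosome 10 (73812501 to 73874555) held 97. CAMK2A on chromosome 5 (150219491 to 150290130) held 0. No called peak lay on the opposite strand of any of the 4 spans. Exons and introns were not used here, so a position says only where in the gene span a peak lies.

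CaMKII is a serine/threonine kinase that is switched on by calcium-loaded calmodulin and can then keep itself active by autophosphorylation. Each gene encodes a catalytic domain, a regulatory segment that binds calmodulin, a variable linker and a hub domain that assembles the subunits into a ring. The linker is built from alternatively spliced exons in the transcripts of the whole family. CAMK2A and CAMK2B are best known from neurons, where the kinase acts in synaptic plasticity, and CAMK2D and CAMK2G are made in many tissues. RBFOX2 is a splicing regulator that binds UGCAUG elements, often in introns beside the exons it controls.

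RBFOX2 enrichment in this family was found in CAMK2G. Enriched peaks here are those whose log2 fold and −log10 p both reached 3. CAMK2G held 14, 14, 15 and 17 enriched peaks in replicates 1 to 4 (mean 15 ± 1.41, SD, n = 4), and CAMK2B, CAMK2D and CAMK2A held 0 in every replicate. They were 70%, 53.8%, 55.6% and 70.8% of the called peaks of CAMK2G. Over all called peaks of the same lists the share was 0.861%, 0.848%, 0.789% and 0.775%, or 0.818% for the 4 lists together. CAMK2G also had the smallest number of called peaks of the 3 genes that had any, at 20, 26, 27 and 24.

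**Figure D1:**
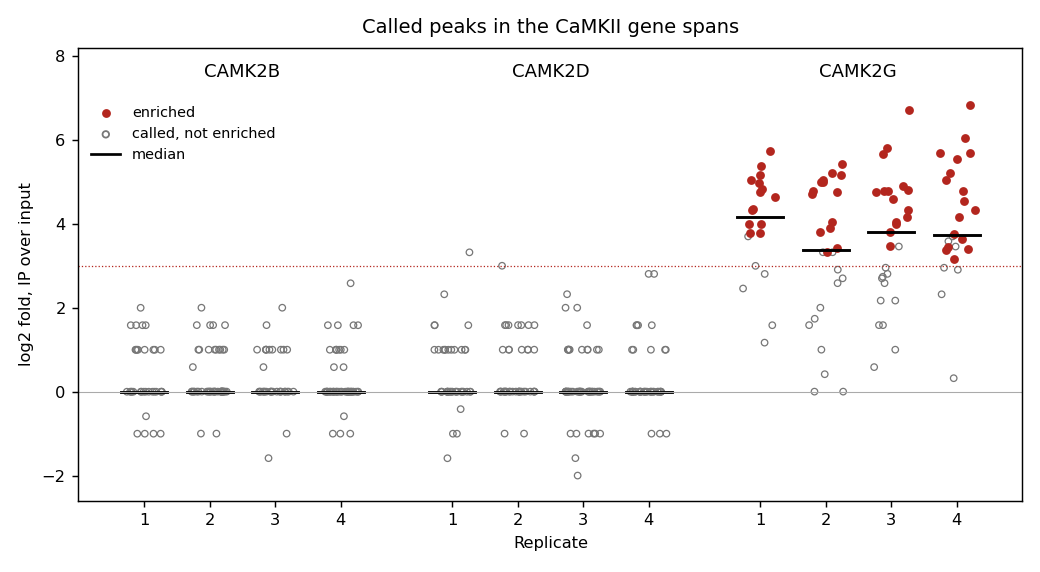
Each point is 1 called peak, placed by its log2 fold of IP over input and by gene and replicate. Red points are enriched, open points are called but not enriched, black bars are medians and the dotted line marks a log2 fold of 3. The medians of CAMK2G lie between 3.37 and 4.16, and those of CAMK2B and CAMK2D lie close to 0.

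Most called peaks of CAMK2G had a high fold, not only the top ones, but this did not hold along the whole gene. Of its 97 peaks, 77 lay in the 2 short clusters described below. The 7 peaks furthest towards the 5′ end had a log2 fold of at most 1.59. The median of its peaks stood at a log2 fold of 4.16, 3.37, 3.81 and 3.73 by replicate (mean 3.77 ± 0.32, SD, n = 4). The medians of CAMK2B and of CAMK2D were those of all called peaks in each library, between −0.000866 and 0.00141. A log2 fold above 0.5 was seen for 96.1% ± 5.44 of CAMK2G peaks, 33.5% ± 4.35 of CAMK2B peaks and 32.0% ± 6.76 of CAMK2D peaks (SD, n = 4), against 31.4% of all called peaks. CAMK2G had no peak with a log2 fold below −0.5, while 8.24% ± 4.57 of CAMK2B peaks, 8.66% ± 4.78 of CAMK2D peaks and 23.6% ± 0.486 of all called peaks were below it.

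Between genes, the share above 0.5 was compared within each library. CAMK2G exceeded CAMK2B by 62.5 ± 5.10 percentage points and CAMK2D by 64.1 ± 9.90 (SD, n = 4), in 4 of 4 replicates for each (two-sided exact permutation of the signs, p = 0.13, which no set of 4 replicates can go below; 0.19 after Benjamini-Hochberg adjustment over the 3 pairs). CAMK2D minus CAMK2B was −1.52 ± 5.33 points, ranging from −7.84 to 4.89 over the replicates (exact permutation p = 0.625, unchanged by the adjustment). The sign of that last difference turned with the fold limit, with a minimum peak length, with covered length as the measure, and without replicate 3. Pairs with CAMK2A have no value because it has no called peak.

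The enriched peaks of CAMK2G lay in a small part of the gene. When enriched peaks of the 4 lists were joined across gaps of at most 500 nt, a limit chosen after seeing the data, they formed 2 clusters. The larger one runs from 73817956 to 73819701 (1746 nt), 5.46 kb from the 3′ end of the span, and holds 49 enriched peaks among 57 called ones. The smaller one runs from 73824508 to 73825252 (745 nt), 12 kb from the 3′ end, and holds 11 enriched peaks among 20. They are 4.81 kb apart and make up 2.81% and 1.20% of the span, and 77 of the 97 called peaks of the gene fell within them.

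**Figure D2:**
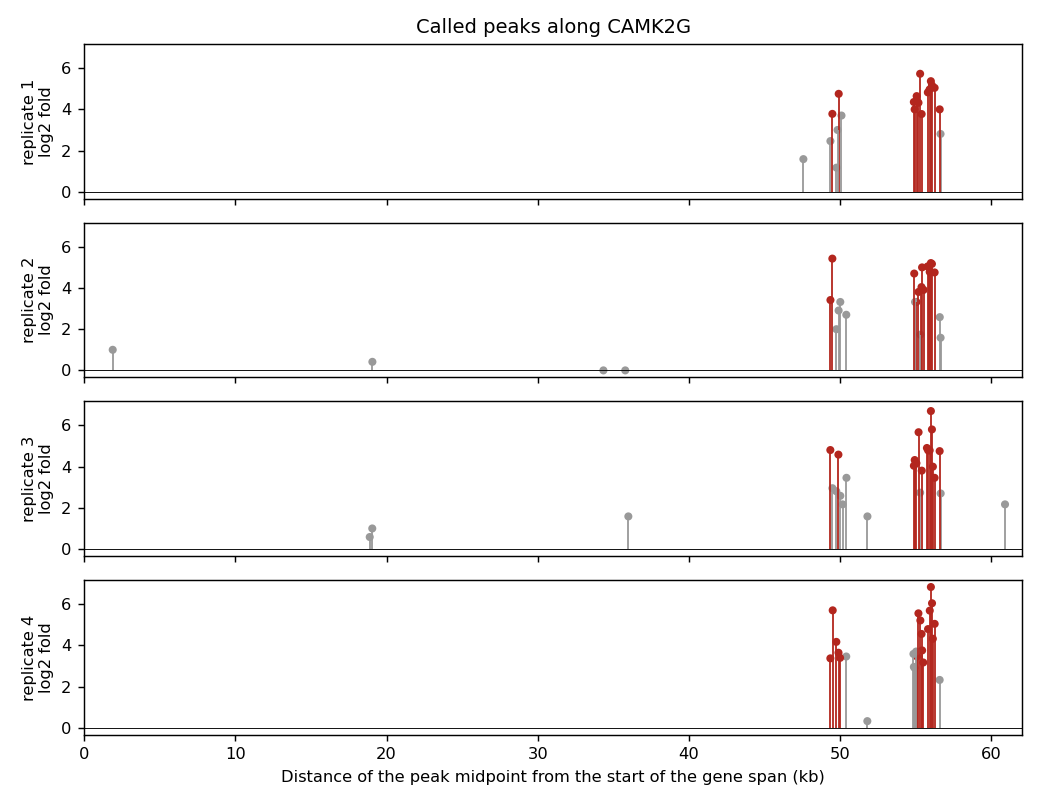
Each stem is a called peak of CAMK2G in replicates 1 to 4 (top to bottom), at the distance of its midpoint from the start of the gene span in kb; its height is the log2 fold of IP over input, red where enriched and grey where not. The red stems stand in 2 groups, near 49 to 50 kb and near 55 to 57 kb, in all 4 replicates.

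Replicates 1 to 4 placed 12, 12, 13 and 12 enriched peaks in the larger cluster and 2, 2, 2 and 5 in the smaller one. The larger cluster thus had nearly the same count in each library, and replicate 4 was the highest for the smaller one. The median log2 fold of called peaks was 4.73, 4.70, 4.54 and 4.44 in the larger cluster (mean 4.6 ± 0.14) and 3, 3.32, 2.96 and 3.64 in the smaller one (mean 3.23 ± 0.32, SD, n = 4). The values of the clusters did not overlap, with a mean difference of 1.37 ± 0.41 (two-sided exact permutation of the signs, p = 0.13, again the lowest value possible). The clusters were drawn from these same folds, so this difference is a description.

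Outside the clusters, CAMK2G had 3, 6, 8 and 3 called peaks in replicates 1 to 4. Their log2 fold reached 3.70, 2.7, 3.46 and 3.58, with a −log10 p of at most 2.74. None was enriched by construction, since the clusters were drawn to hold every enriched peak of the gene. Some lay beside the smaller cluster. Replicates 2, 3 and 4 each had a peak starting at 73824118 to 73824120, with log2 folds of 2.7, 3.46 and 3.46. The replicate 1 peak nearest the 5′ end started at 73826976. Upstream of it, over the remaining part of the span, there were 7 peaks of replicates 2 and 3, with a log2 fold of at most 1.59. Replicate 4 had none there, and replicate 1 had none by the choice of this limit.

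The strongest peak by −log10 p lay at the same place in every replicate. It ran from 73818525 to 73818589 in replicate 1, from 73818527 to 73818586 in replicate 2, from 73818525 to 73818587 in replicate 3 and from 73818524 to 73818588 in replicate 4. Its ends thus varied by 3 nt on each side, and 60 nt were common to the 4 peaks. The −log10 p was 32.4, 28.9, 29.6 and 32.3 and the log2 fold 5.37, 5.21, 6.70 and 6.83. The p-values lay close together, and the fold was higher in replicates 3 and 4 than in 1 and 2. By −log10 p this peak ranked 55th of 2304, 48th of 2389, 46th of 2276 and 38th of 2174 enriched peaks in the lists. By log2 fold it ranked 180th, 177th, 16th and 18th. In replicates 1 and 2 another CAMK2G peak had a higher log2 fold, at 5.73 and 5.43.

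**Figure D3:**
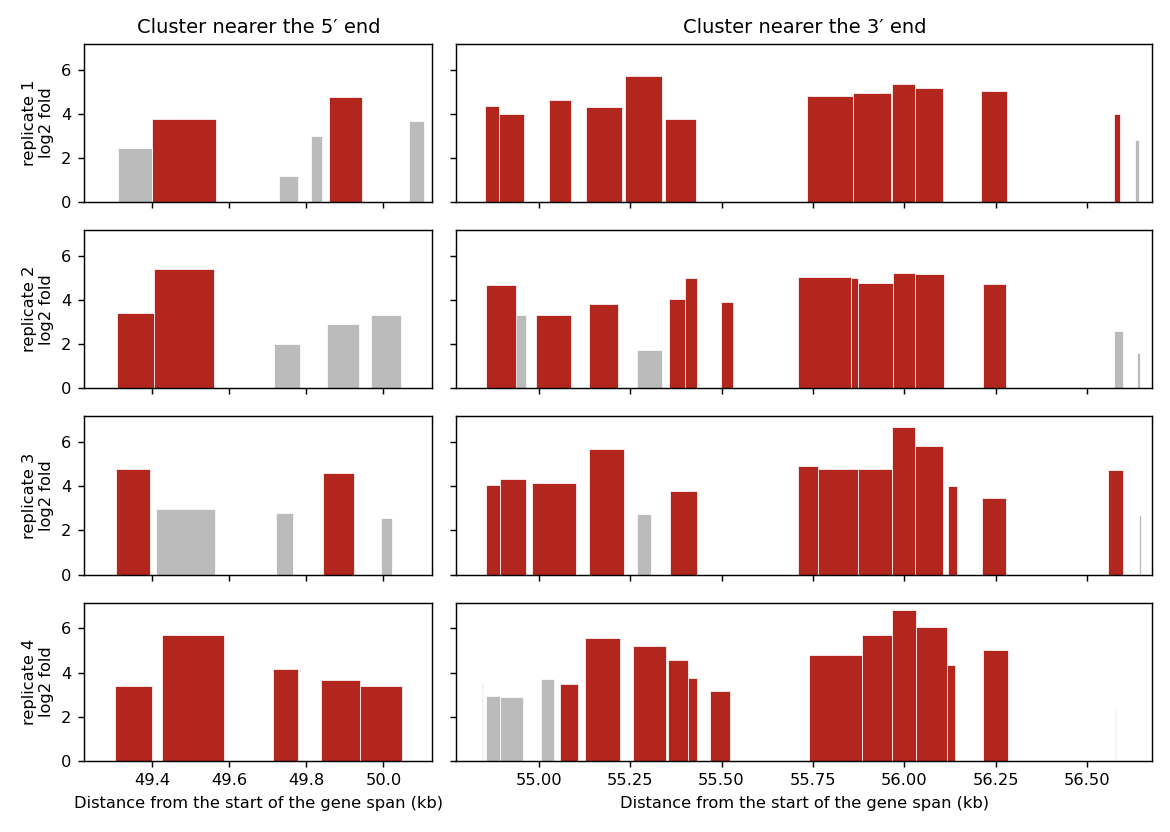
Called peaks in the 2 clusters of CAMK2G by replicate (rows), drawn to scale from the start of the gene span in kb; bar width is the peak length, bar height the log2 fold of IP over input, red where enriched and grey where not. The tallest bar of replicates 3 and 4 in the right column, at 6.70 and 6.83, is the strongest peak, which has the same edges within 3 nt in all 4 rows.

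To count recurrence, enriched peaks of the 4 lists were merged into regions where they overlapped on the same strand by at least 1 nt. All 12 such regions of the family lay in CAMK2G. An enriched peak was present in every replicate for 6 of them, or 50%, against 16.4% of the 3371 enriched regions of the series. A further 2 were enriched in 3 replicates, 3 in 2 and 1 in replicate 4 only. An enriched CAMK2G peak overlapped an enriched peak of another replicate in 81.5% ± 7.34 of cases, and over all enriched peaks the share was 63.0% ± 1.89 (SD, n = 4; for each replicate, averaged over its comparisons with the other 3). When a log2 fold of 4 was the sole limit, 1 region was left in all 4 replicates, and 10 of the 12 had a called peak of any fold in each replicate.

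Among protein-coding genes, 275 of the 12928 with a called peak, or 2.13%, held a region enriched in all 4 replicates. CAMK2G, with 6 such regions, ranked 13th together with 1 other gene, and it ranked 21st by the number of enriched peaks. Of the 3995 genes with at least 80 called peaks it had the 4th highest share of enriched peaks, at 61.9% of its 97 peaks.

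For a test against the spread between replicates, all called peaks of the 4 lists were merged, and each region with a called peak in all 4 was given, per replicate, the fold of whichever peak had the largest −log10 p. Over the whole series this gave 49493 regions, 7.06% of all merged regions. A limma fit over all of them called 21.1% higher than a log2 fold of 0 and 1.81% lower at a Benjamini-Hochberg adjusted p of at most 0.05. In the CaMKII spans 20 regions were tested, of which 14 were higher and 0 lower. None of the 20 had a mean below 0, so the lower count is 0 at any limma p; the lowest mean was 0.15. CAMK2G contributed 10 of 10, CAMK2D 3 of 7 and CAMK2B 1 of 3. The mean log2 fold reached 3 in 9 regions of CAMK2G and in no region of the other genes, against 3.18% of all tested regions called higher at that size. The median of the mean log2 fold was 4.23 for CAMK2G, 1.29 for CAMK2D, 0.40 for CAMK2B and 0.50 for all tested regions. Entry by a peak in all 4 IP libraries and the choice of peak by −log10 p both favour high folds, and the median of all called peaks was between −0.000866 and 0.00141. The higher calls in CAMK2B and CAMK2D, with means of at most 2.35, therefore compare with 0 and not with the usual tested region; none of them passed against a log2 fold of 1.

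The calls changed with the number of libraries. Without replicate 1 or without replicate 4, no region of the series passed the limma adjustment, and the lowest adjusted p in CAMK2G was 0.0507 and 0.0506. Without replicate 2 there were 4 higher regions in the CaMKII spans, and without replicate 3 there were 5, all in CAMK2G. At an unadjusted limma p under 0.05, each of the 14, 11, 10 and 12 CAMK2G regions tested without replicates 1, 2, 3 and 4 was higher.

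The region around the strongest peak, from 73818439 to 73818846 (408 nt), lies 55.9 kb from the start of CAMK2G. Its log2 fold was 5.37, 5.21, 6.70 and 6.83 (mean 6.03 ± 0.86, SD, n = 4; limma adjusted p = 0.00411). It was the highest mean of the 20 CaMKII regions, and it held 18 enriched peaks of the 4 lists. Merging at 25 nt instead of 1 nt split this region. The most overlapping part then had a mean of 4.86 (limma adjusted p = 0.00232), and it did not hold the strongest peak. That part lay at 73818672 to 73818846, with log2 folds of 4.82, 5.05, 4.79 and 4.79, so the 2 means belong to different stretches. Toward the 3′ end, the region from 73818272 to 73818343 had log2 folds of 5.04, 4.76, 3.46 and 5.04 (mean 4.58 ± 0.76; limma adjusted p = 0.00445). Replicate 3 was the lowest there, whereas it was second highest in the neighbouring region.

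Toward the 5′ end of the same cluster, 4 more regions follow. The one from 73819123 to 73819317 had log2 folds of 5.73, 5, 3.81 and 4.55 (mean 4.77 ± 0.80; limma adjusted p = 0.00445). When regions were merged anew, it split without replicate 1, without replicate 4 and with an overlap of at least 25 nt. The most overlapping part had means of 3.23, 3.40 and 3.85 in that order (limma adjusted p = 0.140, 0.158 and 0.018). That part left out the peaks with 5, 3.81 and 4.55, and its own peaks had 5.73, 1.74, 2.74 and 5.21 in replicates 1 to 4. The lower means are thus not those of the same peaks. The next, from 73819323 to 73819427, had 4.32, 3.81, 5.67 and 5.55 (mean 4.84 ± 0.92; limma adjusted p = 0.00469). The order of the replicates thus differed between these neighbours, with replicate 3 lowest in the former and highest in the latter. From 73819448 to 73819573 the log2 fold was 4.64, 3.32, 4.17 and 3.46 (mean 3.90 ± 0.62; limma adjusted p = 0.00462). From 73819590 to 73819701 it was 4.00, 4.70, 4.32 and 2.95 (mean 3.99 ± 0.75; limma adjusted p = 0.00489), and this region missed the enriched set in replicate 4 only, by its fold.

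The smaller cluster held 3 tested regions, with SDs of 0.86, 1.28 and 1.32. The region from 73824970 to 73825252, 49.4 kb from the start of the span, had log2 folds of 3.78, 5.43, 2.96 and 5.70 (mean 4.47 ± 1.32; limma adjusted p = 0.00811) and was enriched in all 4 replicates, in replicate 3 through the other of its peaks there (4.81). Replicates 2 and 4 were high and replicates 1 and 3 low. In the region from 73824508 to 73824741 the values were 4.75, 2.91, 4.59 and 3.64 (mean 3.97 ± 0.86, limma adjusted p = 0.00573), so replicates 1 and 3 were the high ones. Merged anew without replicate 1, this region split. The most overlapping part had a mean of 3.1 (limma adjusted p = 0.0514). That part held other peaks, with 3.32, 2.59 and 3.39 in replicates 2, 3 and 4, so the 2 means are not those of the same peaks. The remaining tested regions of CAMK2G had means of 3.42 ± 1.16 (73817956 to 73817998) and 2.54 ± 1.28 (73824772 to 73824842), with limma adjusted p-values of 0.0113 and 0.0287. Against a log2 fold of 1 in place of 0, 9 of the 10 CAMK2G regions passed in limma.

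**Figure D4:**
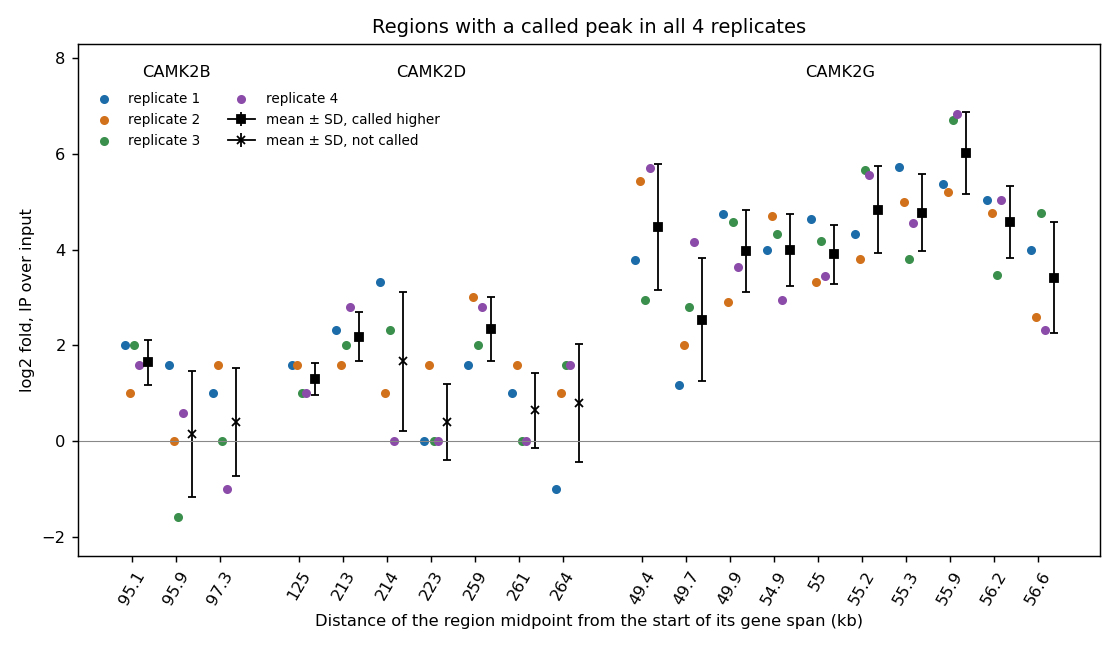
The 20 tested CaMKII regions by gene, labelled with the distance of their midpoint from the start of the gene span in kb. Coloured points are the log2 fold of IP over input in each replicate, and black marks with bars are the mean ± SD (n = 4), squares where limma called the region higher than 0 and crosses where it did not. The 10 CAMK2G regions lie above 0 in every replicate, with means from 2.54 to 6.03.

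CAMK2D, the main CaMKII gene of heart muscle, had 42, 40, 51 and 44 called peaks in its 311 kb, or 0.142 ± 0.0154 per kb (SD, n = 4), against 0.391 ± 0.0499 per kb in CAMK2G. The highest log2 fold in the gene was 3.32, 3, 2.32 and 2.81 in replicates 1 to 4, with a highest −log10 p of 1.93. A log2 fold of 3 was reached by 1 peak each in replicates 1 and 2, and these missed the limit on p. In the lists, peaks at a 10-fold ratio had a −log10 p as low as 1.93 (replicates 1 and 4) or 2.20 (the other two). The smallest whole-number ratio whose peaks all passed 3 was 14-fold in the former libraries and 13-fold in the latter. Read counts were not used here, so that CAMK2D had no enriched peak does not show that RBFOX2 was absent from its RNA.

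The recurrent CAMK2D regions were weaker than those of CAMK2G but did repeat. From 113503122 to 113503211, 259 kb from the start of the span, the log2 fold was 1.58, 3, 2.00 and 2.81 (mean 2.35 ± 0.67; limma adjusted p = 0.0109). From 113548450 to 113548588, at 213 kb, it was 2.32, 1.59, 2.00 and 2.81 (mean 2.18 ± 0.52; limma adjusted p = 0.00973). Both were above 1.5 in 4 of 4 replicates. The third region called higher, from 113636907 to 113637061, had a mean of 1.29 ± 0.34 (limma adjusted p = 0.0239). Between them, the region from 113547642 to 113547779, chosen for mention after its values were seen, varied more (3.32, 1.00, 2.32 and −0.000497) and did not pass (limma adjusted p = 0.114). All 3 calls were lost in each limma fit that left out 1 replicate, with adjusted p-values of 0.0521 to 0.0817.

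CAMK2B, the beta gene, had 34, 46, 34 and 50 called peaks and a highest log2 fold of 2.00, 2.00, 2.00 and 2.58. Of its peaks, 65.9% ± 3.87 lay in the last 25% of the span (SD, n = 4), against 93.4% ± 7.84 for CAMK2G and 23.7% ± 9.52 for CAMK2D. The region from 44230803 to 44230956, 95.1 kb from the start of the span, was called higher, with log2 folds of 2.00, 1.00, 2.00 and 1.58 (mean 1.65 ± 0.47; limma adjusted p = 0.0175). The call did not pass in any limma fit that left out 1 replicate (adjusted p from 0.0514 to 0.0817). The other tested regions of CAMK2B gave 0.15 ± 1.33 (44230023 to 44230159) and 0.40 ± 1.14 (44228620 to 44228768), with replicates on both sides of 0 and limma adjusted p-values of 0.878 and 0.593. The lncRNA gene LOC124901621, annotated inside CAMK2B on the opposite strand, had no called peak.

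The folds of CAMK2B and CAMK2D moved in coarse steps. Relative to the commonest fold of its library, 94.0% ± 1.5 of CAMK2B peaks and 94.5% ± 2.45 of CAMK2D peaks stood at a ratio of 1, 2 or 3 or its inverse, within 0.01, against 77.9% ± 0.682 of all called peaks (SD, n = 4). CAMK2G had 7.87% ± 6.76 there, where few of its folds are that low; at a whole-number ratio of any size stood 64.5% ± 6.75 of its peaks, 96.5% ± 1.70 of CAMK2B peaks, 99.4% ± 1.19 of CAMK2D peaks and 85.8% ± 0.393 of all called peaks. A ratio of 1 alone held 58.2% ± 7.78 and 58.7% ± 6.70 of the peaks of CAMK2B and CAMK2D. The amount of each RNA in the cells was not measured here, so little RNA and little binding cannot be told apart in these genes or in CAMK2A.

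Called peaks recurred most often in CAMK2G, by count and without a test. Of the merged called regions, 10 of 26 in CAMK2G had a peak in all 4 replicates (38.5%), 7 of 120 in CAMK2D (5.83%) and 3 of 128 in CAMK2B (2.34%), against 7.06% of all merged regions. Peaks of 1 replicate only made up 38.5%, 74.2% and 81.2% of the regions of these genes, against 68.3% of all merged regions.

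The partners of CaMKII were described through a list of 44 genes for calmodulin, other CaM kinases, inhibitors, phosphatases and substrates. A called peak was found in 40 of them and a tested region in 34. Of those 34, 17 held at least 1 region that limma called higher, or 50%, and 1 held a lower one (EEF2K); over all protein-coding genes with a tested region the share with a higher region was 38.4%. The list genes had a median of 5 tested regions, and all genes had 3. Without replicates 1, 2, 3 and 4 the count of list genes was 0, 5, 9 and 0.

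CALM3, which encodes calmodulin, the calcium sensor that activates CaMKII, held a region enriched in all 4 replicates (chromosome 19, 46606228 to 46606424, plus strand), with log2 folds of 5.61, 5.88, 3.72 and 5.46 (mean 5.17 ± 0.98; limma adjusted p = 0.00465). Replicate 3 was the low one. CALM3 had 7 higher regions of 10 tested. CALM2, which encodes the same protein, had 3 of 11 with both strands counted, and a highest mean of 1.89 ± 0.32.

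Among kinases upstream of the other CaM kinases, CAMKK1 and CAMKK2 had 5 of 9 and 8 of 13 higher regions. Their highest means were 2.59 ± 1.32 and 2.58 ± 0.67, and neither had an enriched peak. CAMK1 and CAMK4 had called peaks but no tested region. For the CaMKII inhibitors, CAMK2N1 had 0 of 1 higher regions and CAMK2N2 had no tested region. Calcineurin, the calcium-dependent phosphatase, had higher regions in its catalytic subunit genes PPP3CA (3 of 6) and PPP3CB (2 of 6), with highest means of 1.81 ± 0.44 and 2.23 ± 0.70. The third catalytic gene, PPP3CC, had 0 of 3, and the regulatory subunit gene PPP3R1 had 0 of 7.

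Of the substrates and targets, HDAC4, a class IIa histone deacetylase that CaMKII phosphorylates, was the other gene of the list with a region enriched in all 4 replicates. On chromosome 2 (239365517 to 239366326, minus strand) its log2 fold was 6.66, 5.48, 5.46 and 6.61 (mean 6.05 ± 0.67; limma adjusted p = 0.00408). Together, 2 of the 40 list genes with a called peak held such a region, against 2.13% of genes, and 3 held a region enriched in at least 2 replicates, against 4.81%. The third was ATP2A2, the calcium pump of the sarcoplasmic and endoplasmic reticulum, whose best tested region had 2.46, 3.70, 3.70 and 0.74 (mean 2.65 ± 1.40; limma adjusted p = 0.0313). These counts of list genes were not tested against the shares of all genes. The list genes had a median of 5 tested regions against 3, and the list was chosen with earlier results of these data known. CRTC1, a CREB coactivator, had 13 of 21 higher regions with a highest mean of 3.12 ± 0.42, and its relative CRTC2 had 2 of 5 with 2.27 ± 0.92. RYR2, the ryanodine receptor of heart muscle, had 1 higher region of 2, at 2.58, 2.81, 2.59 and 2.58 (mean 2.64 ± 0.11; limma adjusted p = 0.00465). None of the RYR2 peaks was enriched, and 3 of these values shared 1 step of the fold scale, which keeps the SD small.

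**Figure D5:**
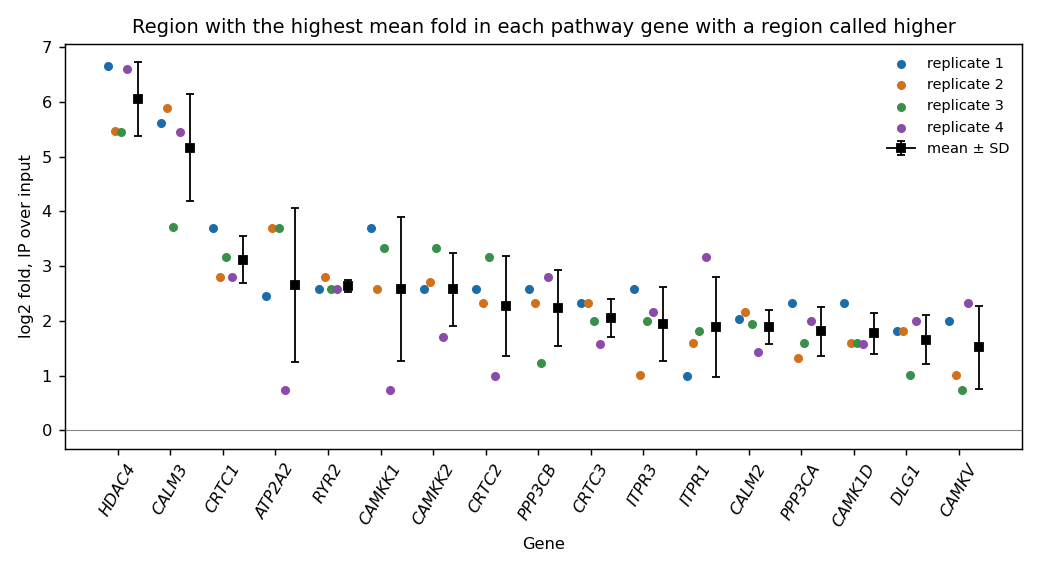
For each of the 17 list genes with a region called higher by limma, the region with the highest mean: coloured points are the log2 fold of IP over input in each replicate and black squares with bars the mean ± SD (n = 4). HDAC4 and CALM3 stand at 6.05 and 5.17, and the other genes lie at 3.12 or below.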

How the data were processed

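The authors deposited 1 peak list per IP library without a header. From their range and sign, the deposited values were read as the −log10 p of a p-value that sets the IP against its input. A second deposited column was read as the log2 fold between the same libraries. Per the submitters' processing notes, UMI-tools 1.1.1, cutadapt 3.2 and STAR 2.7.7a were used with hg38 and GRCh38.p13; the peak caller, the p-value test, the scaling and the filters are not given in the sources used here. Sequencing depth is unknown, so no counting interval is given. Gene spans came from RefSeq (GRCh38.p14) and strands from its promoter table. Among protein-coding genes, 15842 of 20050 had a strand there, and the others took peaks of both strands. The latter include 9 of the 44 listed partners, among them CALM2, CAMK2N1, PPP3CA, PPP3CB, PPP3CC and CRTC2. Their region counts are not limited to 1 strand, unlike those of the other partners.

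Regions were tested with limma 3.58.1 in R 4.3.3 (lmFit with an intercept, eBayes, two-sided p-values adjusted by Benjamini-Hochberg over all regions) and checked on simulated data. Gene pairs were tested with exact sign-flip permutations, for 3 of 6 planned pairs since CAMK2A had no peak. Other steps ran in Python 3.11.15 with pandas 2.3.3. The members, the partner list and the tests were chosen with earlier results of these data known. Regions named were those enriched in all 4 replicates, then limma higher regions with a mean log2 fold of at least 3 (at most 8 per gene), then the best regions up to 3 per gene, and the 2 lowest means; of the partners, genes with a region enriched in all 4 and the 6 next by mean. Other regions and partner genes are named to complete a gene or a role. Inputs have no list of their own and were used only through these folds. The result for 1 gene of the partner list is not reported here.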

Additional observations from a re-analysis of the deposited data

Results flagged for a closer look

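In 4 of 53 sets of 4 replicate values, 1 replicate stood apart from the others by the gap to its nearest neighbour. The limit on that gap marks about 5% of sets by chance when values are continuous. Many folds here stood on coarse steps, so that rate does not apply to them. Whether 4 of 53 exceeds chance was not tested. The highest log2 fold in CAMK2B was 2.58 in replicate 4 and 2.00 in each of the others. In the CAMK2D region from 113538682 to 113538761, replicate 2 had a log2 fold of 1.59 and the others lay between −0.000866 and 0.000771. In the partner genes, the CAMK1D region from 12435861 had 2.32 in replicate 1 against 1.58 to 1.59, and the RYR2 region from 237603144 had 2.81 in replicate 2 against 2.58 to 2.59. In each case the other 3 values shared 1 step of the fold scale.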

How the results depend on the processing

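The count of 15 enriched peaks per replicate stayed between 11 and 16.25 under every alternative run, and in the alternatives on the limits and on replicates all lay in CAMK2G. The 6 regions enriched in all 4 replicates became 1 when a log2 fold of 4 was the sole limit, and 10 when any called peak counted; the other alternatives gave 5 to 8. The 14 higher regions became 9 against a log2 fold of 1 and 0 to 5 when 1 replicate was left out, and the count of lower regions was 0 throughout. The 17 partner genes with a higher region became 2 and 3 when a region enriched in all 4 or in at least 2 replicates was required, and 0 to 9 without 1 replicate. CAMK2D minus CAMK2B in the share of peaks above a log2 fold of 0.5 turned from −1.52 to 0.75 points with a limit of 1, to 0.86 with peaks of at least 40 nt and to 0.053 with covered length, and lay between −3.66 and 0.58 without 1 replicate. CAMK2G kept its sign against both genes. Of 123 alternative values for the 14 named CaMKII regions, 78 stayed on their side of the threshold and 43 fell short of it. In CAMK2B 2 values changed sign, both in regions not called before. The region from 44230023 lay between −0.33 (without replicate 1) and 0.72, and that from 44228620 between −0.000197 (without replicate 2) and 0.53. For these 2 regions 3 alternatives gave no value, as no region was tested there. Joining across 200 nt, chosen after seeing the data, gave 3 clusters in CAMK2G and 1000 nt gave 2. No paired analysis was possible because a fit with a block for the replicate number needs IP and input values apart; the deposited folds are themselves differences within pairs, so the limma fit on them already compares each IP with its input. The cause of these changes was not tested, beyond the fewer libraries in the fits that left 1 out.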
